A study of Rattus norvegicus with 30 samples.

Results

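The genes described here are 5 genes that mark dopamine transmission and the neurons of the striatum. They are Drd1 (ENSRNOG00000023688), Drd2 (ENSRNOG00000008428), Adora2a (ENSRNOG00000001302), Ppp1r1b (ENSRNOG00000028404) and Th (ENSRNOG00000020410). They were chosen by name, and an identifier was to be kept only if the count tables placed it on the chromosome known for that gene. All 5 were kept, out of 32552 genes in the tables, and all 5 passed the filter on low counts, which 15797 genes passed.

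Dopamine acts on striatal projection neurons through receptors of opposite effect on cyclic AMP. Neurons of the direct pathway carry the D1 receptor, whereas those of the indirect pathway carry the D2 receptor together with the adenosine A2A receptor, and both kinds hold DARPP-32, the phosphoprotein on which these signals meet. Methamphetamine (METH) releases dopamine from nerve terminals, which in the striatum arrive from midbrain cells that make it with tyrosine hydroxylase.

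RNA sequencing was done on brain tissue of 30 adult wild type Sprague Dawley rats, with 1 library per rat. The paper gives them as male. Shock-resistant (SR, n = 7) and shock-sensitive (SS, n = 6) rats had taken METH by lever pressing over 21 training days and then over 8 days on which presses could bring a foot-shock, and they were told apart by how far they cut their drug taking under shock, SS rats more than SR rats. Control rats (CT, n = 7) took saline and got no foot-shocks, and saline rats yoked to SR (YSR, n = 5) or to SS rats (YSS, n = 5) got the shocks of a METH rat. The study compared these groups to find transcripts that go with continued drug taking under punishment. The deposited records name dorsal striatum as the tissue but hippocampus in their protocol, and the paper describes whole hippocampus. The records and the abstract of the paper place death 2 h after the last session, whereas the methods of the paper place it immediately after. SR and SS rats were sorted by behavior and not assigned, and the pairing of yoked with METH rats was not used.

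Each library held between 14584340 and 19997820 counts (median 17396700). The titles of the libraries carry a code, XII or XIII, that no source used here explains. Code XII was carried by 1 of 7 CT, 4 of 7 SR, 2 of 6 SS, 3 of 5 YSR and 1 of 5 YSS rats, and code XIII by the others. The 3 SR rats of code XIII (replicate XIII-R09, with XIII-L09 and XIII-R07) stood apart from the other rats in these genes, so the main results that include them are also given without them, a choice made after these values were seen. In the order L09, R07, R09, they ranked 1, 3 and 2 of 30 rats for Adora2a and 1, 2 and 3 for Ppp1r1b. Their ranks were 2, 1 and 9 for Drd1, 1, 2 and 5 for Drd2, and 15, 11 and 14 for Th.

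The genes lie on 5 chromosomes, at coordinates of the count tables, whose genome build is not given in the sources used here. Drd1, the D1 receptor, spans chr17:11101306-11103541 on the plus strand in 1 exon block. That is 2236 bp, against a span of 4542 bp in another annotation (RefSeq), and how this bears on its level was not tested. Drd2, the D2 receptor, spans chr8:53678777-53743642 on the plus strand in 8 exon blocks, and Adora2a, the A2A receptor, spans chr20:14265252-14282873 on the minus strand in 3. Ppp1r1b, which encodes DARPP-32, spans chr10:86303727-86312762 on the plus strand in 7 exon blocks. Th, which encodes tyrosine hydroxylase, the rate-limiting enzyme of dopamine synthesis, spans chr1:216073031-216080287 on the minus strand in 13. None of the 5 overlaps another gene of the tables, with 0 overlapping genes each.

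Levels per exon length separated DARPP-32 from the receptors. The mean level was 114 ± 20.9 TPM (counts per exon length, scaled to the same total in each library) for Ppp1r1b, 5.48 ± 2.53 for Drd1, 4.73 ± 2.49 for Adora2a, 3.56 ± 1.32 for Drd2 and 1.13 ± 0.387 for Th (SD, n = 30 rats). The median gene tested was at 18.1 TPM. Ppp1r1b was at percentile 90.4 of the genes tested, while Drd1 was at 26.0, Adora2a at 23.6, Drd2 at 20.1 and Th at 7.84. Among the 25802 genes detected in any library, before the filter, the percentiles were 94.1 for Ppp1r1b, 54.4 for Drd1, 52.9 for Adora2a, 50.3 for Drd2 and 40.6 for Th, so that the receptors lay near the middle of that wider set. Drd1, Drd2, Adora2a and Th were below the median tested gene of the same library in 30 of 30 rats, and Ppp1r1b was above it in 30 of 30. The library nearest to that median was 0.809 times as high for Drd1 (SR replicate XIII-R07) and 0.753 times for Adora2a (SR replicate XIII-L09), and the highest for Drd2 was 0.394 times (SR replicate XIII-L09).

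In the dorsal striatum the D1, D2 and A2A receptors and DARPP-32 are known as abundant transcripts. The receptors, below the median tested gene in every library and near the middle of the detected genes, were not at such levels and went against the tissue field, whereas Ppp1r1b, high in every library, did not. No library of known striatal or hippocampal origin was used here, so this reading rests on what is known of the tissue and not on a measured comparison, and it does not settle the tissue. Markers of hippocampal neurons could not be matched to identifiers, so whether the tissue was hippocampus, as in the paper, was not tested with its own markers. In these bulk samples, fewer cells of a type and less RNA per cell cannot be told apart.

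**Figure D1:**
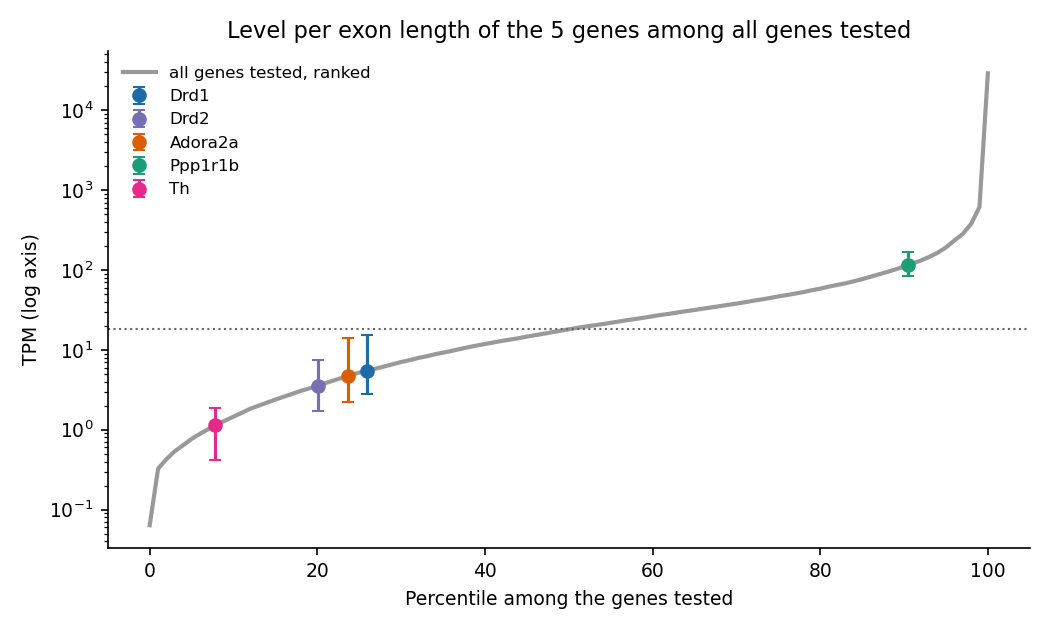
Mean level in TPM (log axis) of the 5 genes against their percentile among the 15797 genes tested, over 30 rats. Points are means, bars run from the lowest to the highest rat, the grey line is all genes tested and the dotted line is the median gene at 18.1 TPM. Of the 5 genes, only Ppp1r1b lies above the median gene.

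The order of the 5 levels per length was similar from rat to rat. Ppp1r1b was the highest and Th the lowest of the 5 in 30 of 30 rats. The order Ppp1r1b, Drd1, Adora2a, Drd2, Th was found in 15 rats, and the order with Adora2a ahead of Drd1 in 8. Drd1 exceeded Drd2 in 27 of 30 rats, with a median ratio in TPM of 1.39. Adora2a exceeded Drd2 in all but 6 rats, but Drd1 exceeded Adora2a in only 20 of 30, so that these neighbours were not separated. The median ratio of Adora2a to Ppp1r1b in TPM was 0.0366.

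Values between groups are given as CPM, counts scaled by library size and TMM factors, which correct for library size and not for gene length. For Drd1, the lowest, median and highest rats had 4.05, 6.62 and 7.84 CPM in CT, 3.75, 5.58 and 16.5 in SR, and 3.20, 5.01 and 9.09 in SS rats. The YSR rats had 3.87, 4.12, 5.33, 7.78 and 7.84 CPM of Drd1, and the YSS rats had 3.95, 4.34, 4.47, 5.63 and 5.91. The groups overlapped throughout, and 2 SR rats of code XIII, at 11.2 and 16.5 CPM, were above all other rats. The group means ran from SR (7.46 ± 4.74 CPM, n = 7) through CT, YSR and SS to YSS (4.86 ± 0.858, n = 5). Between neighbours in this order p was between 0.547 and 0.818 (exact two-sided permutation tests of the means). Here and for the genes below, neighbours were set by the observed means. This favors a high p, and groups farther apart are not covered by these tests.

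For Drd2, the lowest, median and highest rats had 3.28, 4.57 and 7.79 CPM in CT, 2.79, 6.37 and 9.72 in SR, and 2.28, 4.06 and 5.35 in SS rats. The YSR rats had 2.82, 4.11, 4.26, 4.99 and 5.01 CPM of Drd2, and the YSS rats had 3.95, 4.53, 4.95, 5.06 and 5.44. The 2 highest of the 30 rats were SR rats of code XIII, at 9.15 and 9.72 CPM, and the groups overlapped. The group means ran from SR (5.97 ± 2.84 CPM, n = 7) through CT, YSS and YSR to SS (3.98 ± 1.02, n = 6), with p between 0.286 and 0.957 between neighbours (exact two-sided permutation tests).

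Adora2a had 6.25 times as much CPM in the highest rat as in the lowest, but 3.42 times without the 3 SR rats of code XIII, when Th had the widest range of the 5 genes (4.42 times). The lowest, median and highest rats had 2.96, 4.73 and 9.19 CPM in CT, 3.62, 6.06 and 16.8 in SR, and 2.69, 4.82 and 5.87 in SS rats. The YSR rats had 3.14, 3.42, 4.34, 8.18 and 8.58 CPM of Adora2a, and the YSS rats had 4.09, 4.55, 5.23, 5.40 and 5.45. The 3 SR rats of code XIII, at 11.04, 11.05 and 16.8 CPM, were above the other 27 rats, whereas the 4 SR rats of code XII lay among the other groups. The group means ran from SR (8.32 ± 4.80 CPM, n = 7) through YSR, CT and YSS to SS (4.60 ± 1.09, n = 6), with p between 0.285 and 0.927 between neighbours (exact two-sided permutation tests).

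For Ppp1r1b, the lowest, median and highest rats had 83.8, 90.6 and 114 CPM in CT, 90.7, 128 and 139.6 in SR, and 79.3, 93.8 and 111 in SS rats. The YSR rats had 84.0, 84.7, 99.8, 100.3 and 117 CPM of Ppp1r1b, and the YSS rats had 73.7, 77.3, 83.0, 84.8 and 88.8. All 7 SR rats were above the CT median, and 4 of them were above every saline rat, but the ranges of SR and CT overlapped. All 5 YSS rats were below the CT median. The group means ran from SR (119 ± 18.7 CPM, n = 7) through YSR (97.2 ± 13.7, n = 5), CT (94.2 ± 10.2, n = 7) and SS (94.1 ± 13.1, n = 6) to YSS (81.5 ± 6.02, n = 5). Between neighbours p was 0.0556 for SR and YSR, 0.0952 for SS and YSS, and 0.657 or higher for the others (exact two-sided permutation tests).

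Th was near the lower end of what was counted, with 7 to 29 counts per library. The lowest, median and highest rats had 0.363, 0.970 and 1.19 CPM in CT, 0.540, 1.06 and 1.12 in SR, and 0.760, 1.21 and 1.61 in SS rats. The YSR rats had 0.539, 0.699, 1.19, 1.25 and 1.44 CPM of Th, and the YSS rats had 0.625, 0.697, 0.910, 1.46 and 1.47. The groups overlapped, and Th was the only one of the 5 genes with its lowest group mean in SR rats (0.874 ± 0.280 CPM, n = 7) and its highest in SS rats (1.20 ± 0.353, n = 6). Between neighbours in the order SS, YSS, YSR, CT, SR, p was between 0.463 and 0.968 (exact two-sided permutation tests).

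**Figure D2:**
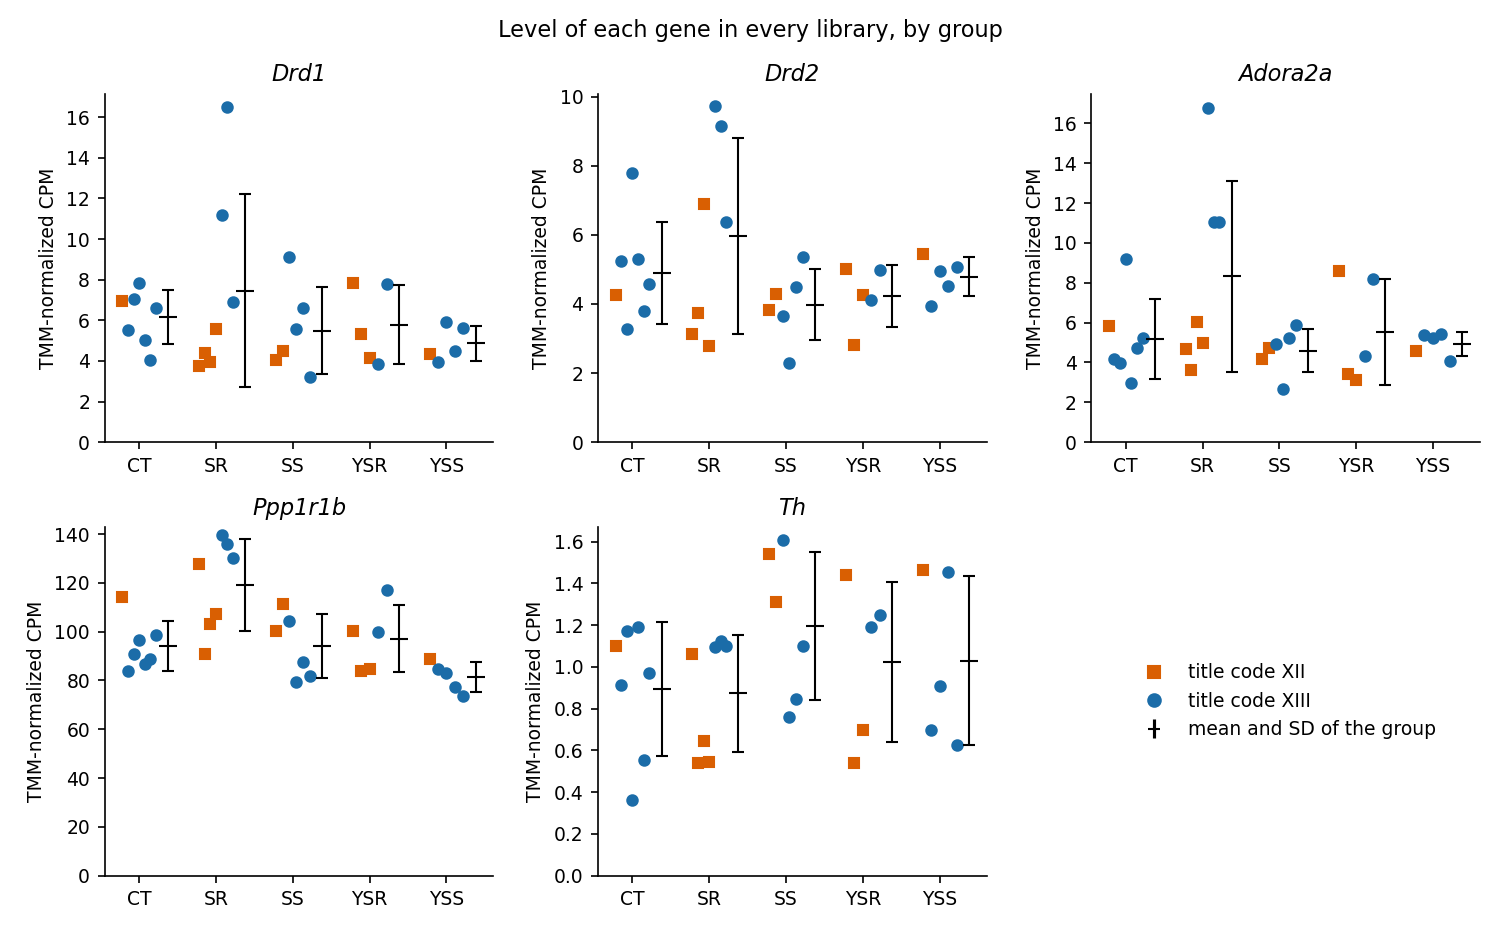
TMM-normalized CPM of the 5 genes in each of the 30 rats, by group (CT 7, SR 7, SS 6, YSR 5, YSS 5). Squares are rats of title code XII and circles rats of code XIII, and the bar beside each group is its mean and SD. The 3 SR circles are the highest points for Adora2a and Ppp1r1b, and the 4 SR squares lie lower.

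METH rats (SR and SS, n = 13) were compared with saline rats (CT, YSR and YSS, n = 17) to ask whether taking the drug went with a change in these genes. No member passed an adjusted p under 0.05 in edgeR's quasi-likelihood test, where 0 of 15797 genes (0%) did and 7.32% (1156 genes) had an unadjusted p under 0.05. DESeq2 called 14 genes, none of them a member. Of the 5 genes, 1 had an unadjusted p under 0.05. Ppp1r1b was at 108 ± 20.4 CPM in METH and 91.3 ± 11.8 in saline rats, and 10 of 13 METH rats were above the saline median. Its log2 fold change was 0.22 (SE 0.06, edgeR p = 0.00153, adjusted p = 0.387), and a permutation test of its CPM gave p = 0.0116.

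The other 4 genes had no unadjusted p under 0.05 over all 30 rats. The log2 fold changes in METH vs. saline rats were 0.20 (SE 0.19) for Drd1, 0.07 (SE 0.16) for Drd2, 0.24 (SE 0.20) for Adora2a and 0.05 (SE 0.19) for Th, with adjusted p between 0.862 and 0.973 in edgeR. Without the 3 SR rats of code XIII, the log2 fold changes were -0.18 for Drd1, -0.19 for Drd2, -0.15 for Adora2a and -0.11 for Th, and that of Ppp1r1b was 0.14 (SE 0.06, edgeR adjusted p = 0.543). Within code XIII alone, the log2 fold changes were larger for the receptors, at 0.58 for Drd1 (SE 0.20, edgeR adjusted p = 0.578), 0.52 for Adora2a (SE 0.20, adjusted p = 0.615) and 0.29 for Drd2 (SE 0.17, adjusted p = 0.783), and that of Ppp1r1b was 0.24 (SE 0.05, adjusted p = 0.333). Drd1, Adora2a and Ppp1r1b had an unadjusted p under 0.05 there, as did 1122 of 16132 genes.

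Against the yoked rats alone (n = 10), which were shocked as the METH rats were, the pattern was similar. Ppp1r1b was at 89.3 ± 12.9 CPM in yoked rats, and 11 of 13 METH rats were above the yoked median. Its log2 fold change was 0.25 (SE 0.07, edgeR p = 0.00182, adjusted p = 0.384; permutation test, p = 0.0212), and 0.17 without the 3 SR rats of code XIII (edgeR adjusted p = 0.639). For the other 4 genes the adjusted p was between 0.862 and 0.997 in edgeR. Among all genes tested, 7.48% (1181 genes) had an unadjusted p under 0.05 and 0% (0 genes) an adjusted p under 0.05, while DESeq2 called 12.

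Within METH rats, SR vs. SS asks which transcripts go with continued drug taking under punishment. The paper reports that SR rats took more METH in the shock phase and got more shocks than SS rats. In SR vs. SS, continued drug taking, dose and number of shocks cannot be told apart. Of the 5 genes, Adora2a, Drd2 and Ppp1r1b had an unadjusted p under 0.05, against 7.46% (1178) of all genes, and none passed the adjusted threshold in edgeR, as 0% (0 genes) did, while DESeq2 called 12 genes. The log2 fold change was 0.85 for Adora2a (SE 0.30, edgeR p = 0.00762, adjusted p = 0.526; exact permutation p = 0.0932), with 5 of 7 SR rats above the SS median. It was 0.58 for Drd2 (SE 0.24, edgeR p = 0.0227, adjusted p = 0.616; exact permutation p = 0.139), with 4 of 7 above that median, and 0.34 for Ppp1r1b (SE 0.10, edgeR p = 0.00127, adjusted p = 0.402; exact permutation p = 0.0221), with 6 of 7. Drd1 (log2 fold change 0.44, SE 0.28) and Th (-0.45, SE 0.28) did not pass either threshold. The value of Drd1 was 0.12 without SR replicate XIII-R07 and 0.64 without SS replicate XIII-L03. For Drd2 the unadjusted call in edgeR was lost without SR replicate XIII-L09 (log2 fold change 0.42), SR replicate XIII-R07 (0.45) or SS replicate XIII-L05 (0.47), and with only the SR and SS libraries in the fit (0.58).

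In SR vs. CT, Adora2a and Ppp1r1b of the 5 genes had an unadjusted p under 0.05, against 10.5% (1656) of all genes, and none passed the adjusted threshold in edgeR (0%, 0 genes; 13 by DESeq2). The log2 fold change was 0.34 for Ppp1r1b (SE 0.09, edgeR p = 0.000882, adjusted p = 0.281; exact permutation p = 0.0146), with 7 of 7 SR rats above the CT median. It was 0.69 for Adora2a (SE 0.28, edgeR p = 0.0214, adjusted p = 0.409; exact permutation p = 0.117), with 5 of 7. The unadjusted call of Adora2a was lost without SR replicate XIII-L09 (log2 fold change 0.41) or CT replicate XIII-R06 (0.58). The log2 fold changes were 0.28 (SE 0.27) for Drd1, 0.29 (SE 0.23) for Drd2 and -0.04 (SE 0.28) for Th. For Drd1, 1 rat set the direction, since the value was -0.04 without SR replicate XIII-R07.

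Values of SR rats are given here within each title code. In code XIII, Ppp1r1b was at 135 ± 4.82 CPM in 3 SR rats, 90.8 ± 5.75 in 6 CT rats and 88.2 ± 11.3 in 4 SS rats. The SR rats overlapped with neither group, but the share of all genes separated in this way is not given here. Adora2a, Drd2 and Drd1 had log2 fold changes of 1.36, 0.75 and 0.93 in SR vs. CT there, with edgeR adjusted p of 0.144, 0.528 and 0.515. Ppp1r1b passed the adjusted threshold there in SR vs. CT (log2 fold change 0.57, SE 0.07, edgeR adjusted p = 0.00395), where 4 of 16132 genes (0.0248%) did and 7.19% (1160) had an unadjusted p under 0.05. It was the 1 gene of 16132 (0.0062%) to pass in SR vs. SS (log2 fold change 0.62, SE 0.08, edgeR adjusted p = 0.0051), where 6.74% (1087) had an unadjusted p under 0.05. With each rat of the compared groups left out in turn, the call in SR vs. CT was kept in 9 of 9 fits (highest adjusted p = 0.021) and that in SR vs. SS in 5 of 7, being lost without SR replicate XIII-L09 or XIII-R07 (edgeR; highest adjusted p = 0.0795). Exact permutation tests gave p = 0.0238 for SR vs. CT and p = 0.0571 for SR vs. SS, each the smallest these numbers of rats allow. These values within code XIII rest on the 3 SR rats already seen to rank 1, 2 and 3 of 30 for Ppp1r1b, and the tests leaving out 1 rat and the permutations were added after that was seen, so they describe these rats and give no independent support. Over both codes, Ppp1r1b did not pass the adjusted threshold (edgeR adjusted p = 0.281 in SR vs. CT and 0.402 in SR vs. SS).

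In code XII, with 4 SR and 2 SS rats, Ppp1r1b was at 107 ± 15.3 CPM in SR and 106 ± 7.96 in SS rats (log2 fold change 0.02, exact permutation p = 1). Adora2a was at 12.97 ± 3.32 CPM in SR and 4.68 ± 1.38 in SS rats of code XIII, but at 4.83 ± 1.003 and 4.44 ± 0.383 in those of code XII. Drd2 was at 8.41 ± 1.79 CPM in SR and 3.94 ± 1.30 in SS rats of code XIII, against 4.13 ± 1.87 and 4.06 ± 0.330 in code XII. For both receptors the SR rats of code XIII lay above every SS rat of that code (exact permutation p = 0.0571 each, the smallest possible). The ranges overlapped in code XII, and the share of all genes separated as in code XIII is not given here. Th went the other way, with both SS rats of code XII above all 4 SR rats of that code (log2 fold change -1.03, exact permutation p = 0.133, the smallest possible), but 0.03 in code XIII.

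A test of this difference between the codes gave a log2 difference in SR vs. SS of 0.60 for Ppp1r1b (SE 0.14, edgeR adjusted p = 0.215). It gave 1.35 for Adora2a (SE 0.50, edgeR adjusted p = 0.351) and 1.06 for Drd2 (SE 0.44, edgeR adjusted p = 0.398). These 3 of 5 genes had an unadjusted p under 0.05, while among all genes 10.5% (1660) had one in this test and 0% (0 genes) an adjusted p under 0.05, so that the difference between the codes did not pass the threshold for any member. For SR vs. CT the same test rests on the 1 CT rat of code XII. It gave 0.66 for Ppp1r1b (SE 0.16, edgeR adjusted p = 0.552), 1.63 for Adora2a (SE 0.55, adjusted p = 0.656) and 1.59 for Drd1 (SE 0.51, adjusted p = 0.655), the 3 of 5 with an unadjusted p under 0.05, against 6.5% (1027) of all genes, while 0.00633% (1 gene, no member) had an adjusted p under 0.05. That rat (replicate XII-R11) had 114 CPM of Ppp1r1b, above 3 of the 4 SR rats of its code, and 6.95 CPM of Drd1, above all 4. These tests cannot tell the code apart from other properties of the 3 SR rats of code XIII, which were not tested.

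Without the 3 SR rats of code XIII, the remaining 4 SR rats, all of code XII, were compared with all rats of the other groups, so that code and group are partly mixed. The log2 fold change of Ppp1r1b was then 0.18 in SR vs. SS (edgeR adjusted p = 0.426) and 0.18 in SR vs. CT (edgeR adjusted p = 0.347), and both unadjusted calls were lost. That of Adora2a was 0.06 in SR vs. SS and -0.11 in SR vs. CT, and that of Drd2 was 0.05 and -0.25, with the unadjusted calls of Adora2a in both and of Drd2 in SR vs. SS also lost. In SR vs. SS, Drd1 turned from 0.44 to -0.32. Drd1 was lower in these SR rats than in CT rats, with a log2 fold change of -0.49 (SE 0.24, edgeR adjusted p = 0.282). Th was lower in them than in SS rats, with a log2 fold change of -0.78 (SE 0.35, edgeR adjusted p = 0.300). Both of these had an unadjusted p under 0.05, which they did not have with all rats, but neither passed the adjusted threshold. The share of all genes with such a p in this fit is not given here, so these calls have no background to be read against.

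YSR rats got the shocks of the SR rats they were connected to, but took saline. Ppp1r1b had a log2 fold change of 0.29 in SR vs. YSR (SE 0.10, edgeR p = 0.00713, adjusted p = 0.381; exact permutation p = 0.0556), with 6 of 7 SR rats above the YSR median. Without the 3 SR rats of code XIII it was 0.13 (SE 0.11, edgeR adjusted p = 0.678), and the unadjusted call was lost. Its values within the codes were 0.26 in code XII (4 and 3 rats, exact permutation p = 0.114) and 0.32 in code XIII (3 and 2 rats, exact permutation p = 0.2, the smallest possible), and the difference between the codes was 0.06 (SE 0.15, edgeR adjusted p = 0.981). For Drd1 the values within the codes had opposite signs, at -0.39 in code XII and 0.98 in code XIII, and differed by 1.37 (SE 0.48, edgeR adjusted p = 0.933). Those of Adora2a were -0.07 and 1.05 and differed by 1.12 (SE 0.51, edgeR adjusted p = 0.933). In SR vs. YSR, 0.0253% of genes (4 genes) had an adjusted p under 0.05 in edgeR and no member did, while DESeq2 called 32 genes, none of them a member. In edgeR, 1 of 5 had an unadjusted p under 0.05, against 8.17% (1291) of all genes. In the test between the codes, Drd1 and Adora2a, 2 of 5, had an unadjusted p under 0.05, while 5.14% of genes had an unadjusted p under 0.05 and 0% an adjusted p under 0.05 (812 and 0 genes, edgeR).

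With all 30 libraries in the fit, no member passed a threshold in SS vs. CT or SS vs. YSS. In SS vs. CT, 0 of the 5 had an unadjusted p under 0.05 in edgeR, against 5.01% (791) of all genes, and 0.101% of all genes (16) passed the adjusted threshold, while DESeq2 called 23. Ppp1r1b had a log2 fold change of 0.00 (SE 0.10), with 2 standard errors reaching from -0.19 to 0.19, and Th had 0.42 (SE 0.28). In SS vs. YSS, none of the 5 had an unadjusted p under 0.05, against 4.27% (675) of all genes, and 0% (0 genes) passed the adjusted threshold in edgeR (0 by DESeq2). Ppp1r1b had a log2 fold change of 0.21 there (SE 0.11, edgeR adjusted p = 0.995; exact permutation p = 0.0952), with 4 of 6 SS rats above the YSS median. Its unadjusted p was under 0.05 in 6 of 30 fits that each left out 1 rat, and with only the SS and YSS libraries in the fit.

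The yoked groups show shock without METH, and the paper reports more shocks in YSR than in YSS rats. In YSS vs. CT, Ppp1r1b had a log2 fold change of -0.21 (SE 0.10, edgeR p = 0.0495, adjusted p = 0.980; exact permutation p = 0.0202), and this unadjusted p stayed under 0.05 in 17 of 30 fits that each left out 1 rat and was 0.123 without CT replicate XII-R11. Among the compared rats, the call was lost without CT replicate XIII-L12, XIII-R05, XIII-R12 or XII-R11, or YSS replicate XIII-L02, XIII-L04, XIII-L06 or XIII-R04. It was also lost with the title code (log2 fold change -0.21) or the title letter (-0.19) as a covariate. Over the settings other than leaving out 1 rat, the p of Ppp1r1b was under 0.05 in 5 of 8. Among these were code XIII alone (-0.19) and only the YSS and CT libraries in the fit (-0.21). Over all rats, Ppp1r1b was the 1 member of 5 with an unadjusted p under 0.05 in YSS vs. CT, against 5.01% (791) of all genes, and 0.0823% (13 genes) passed the adjusted threshold. Drd1 had a log2 fold change of -0.34 there (SE 0.30, edgeR adjusted p = 0.980; exact permutation p = 0.0808), with 0 of 5 YSS rats above the CT median, and its unadjusted p was under 0.05 with only the YSS and CT libraries in the fit. In YSR vs. CT, 0 of the 5 had an unadjusted p under 0.05 in edgeR, against 7.56% (1195) of all genes, and 0.12% (19 genes) passed the adjusted threshold, while DESeq2 called 27. Within code XIII alone (2 and 6 rats), Ppp1r1b had a log2 fold change of 0.25 there (SE 0.09, edgeR adjusted p = 0.812), against 0.05 over both codes. It had an unadjusted p under 0.05 in that fit, as did 964 of 16132 genes. In YSR vs. YSS, Ppp1r1b had a log2 fold change of 0.26 (SE 0.11, edgeR p = 0.0266, adjusted p = 1; exact permutation p = 0.0556), and 5 of 5 YSR rats were above the YSS median. Within code XIII alone (2 and 4 rats) its log2 fold change was 0.44 (SE 0.09, edgeR adjusted p = 0.972). Over all rats the unadjusted call was kept in 26 of 30 fits that each left out 1 rat. It was lost without YSR replicate XIII-R10 (0.17) or XII-R02 (0.24), or YSS replicate XIII-L06 (0.23) or XIII-R04 (0.22), and with the title letter as a covariate (0.23). It was the 1 member of 5 with an unadjusted p under 0.05, against 3.29% (519) of all genes, while 0% (0 genes) passed the adjusted threshold in edgeR and 1 gene by DESeq2. By Tukey's test on log2 CPM, adjusted over the pairs of groups, Ppp1r1b had a p under 0.05 in SR vs. CT and SR vs. SS. No other unadjusted call between 2 groups was kept by it, neither those of Adora2a in SR vs. CT and SR vs. SS and Drd2 in SR vs. SS, nor those of Ppp1r1b in SR vs. YSR, YSR vs. YSS and YSS vs. CT. Tukey's test was adjusted over the pairs of groups and not over the genes tested. The share of all genes it called is not given here, so its calls of Ppp1r1b have no background to be read against. The comparisons of SR, SS, YSR and YSS rats with CT rats share the 7 CT libraries, so they are not independent of each other.

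**Figure D3:**
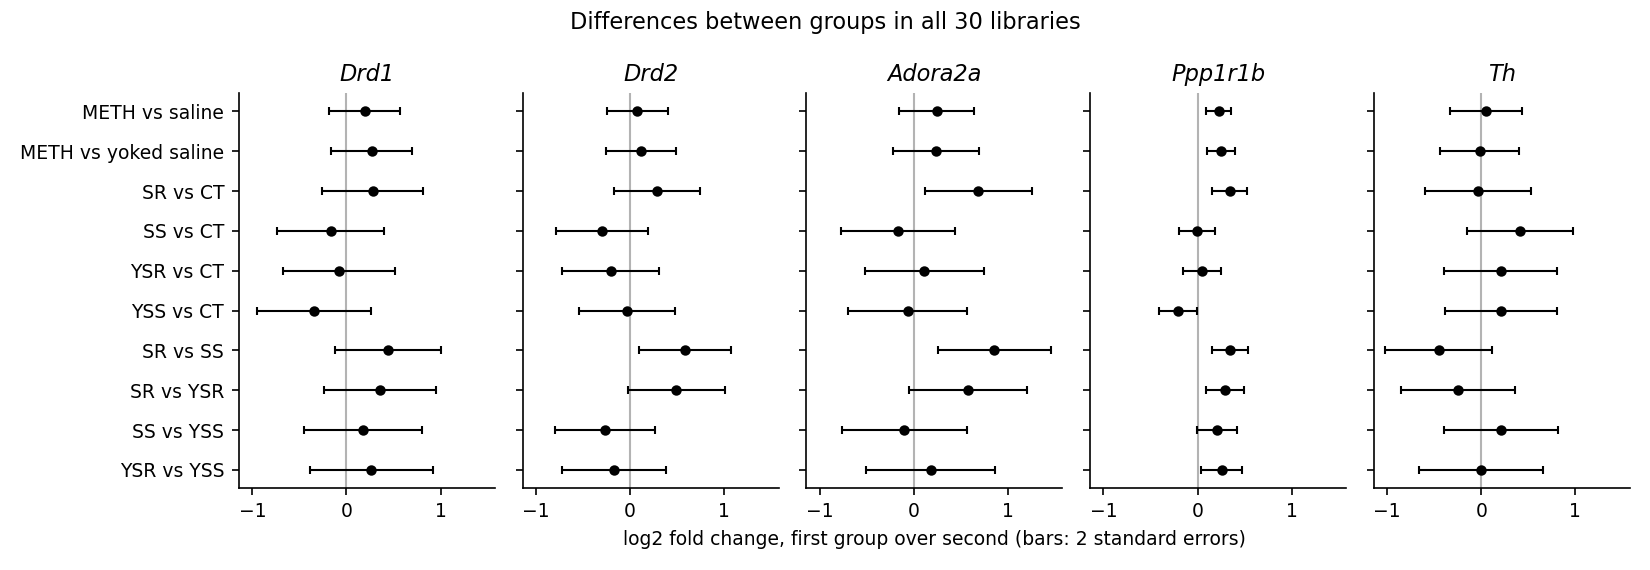
Log2 fold change of the 5 genes in 10 comparisons over all 30 rats, from edgeR. Points are estimates, bars are 2 standard errors and the grey line is no difference. Ppp1r1b has the shortest bars, and its values in METH vs. saline (0.22), SR vs. CT (0.34) and SR vs. SS (0.34) lie above 0 by more than 2 standard errors. So do those in METH vs. yoked (0.25), SR vs. YSR (0.29) and YSR vs. YSS (0.26), and that in YSS vs. CT (-0.21) lies below 0. Adora2a in SR vs. CT (0.69) and SR vs. SS (0.85) and Drd2 in SR vs. SS (0.58) also lie above 0 by more than 2 standard errors.

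Whether the METH difference against yoked rats was itself different in SR and SS rats was tested as an interaction. Drd2 had a log2 value of 0.75 (SE 0.37, edgeR adjusted p = 0.919), which was 0.22 without the 3 SR rats of code XIII. With 1 rat left out at a time, its unadjusted p stayed under 0.05 in 10 of 30 fits and was highest, at 0.105, without SR replicate XIII-L09. The unadjusted call was also lost with the title code as a covariate (0.67) and with only the 4 groups compared in the fit (0.76). Adora2a had 0.68 (SE 0.45), Drd1 0.18 (SE 0.43), Ppp1r1b 0.09 (SE 0.15) and Th -0.45 (SE 0.43), but without those 3 rats Adora2a, Drd1 and Ppp1r1b turned sign, to -0.11, -0.58 and -0.07. Over all rats, Drd2 was the 1 of 5 with an unadjusted p under 0.05. Among all genes, 5.43% (857) had an unadjusted p under 0.05 and 0% (0 genes) an adjusted p under 0.05 in edgeR (0 by DESeq2).

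Over all 30 rats, groups included, the 5 genes varied more between rats than most genes of like level, Th the least so. The SD of log2 CPM over 30 rats was 0.51 for Drd1, 0.46 for Drd2, 0.59 for Adora2a, 0.25 for Ppp1r1b and 0.48 for Th. Among genes within 0.5 log2 CPM of the same mean level, these SDs were at percentile 96.1 for Drd1, 93.7 for Drd2, 97.4 for Adora2a, 98.5 for Ppp1r1b and 63.9 for Th. The median SD of those genes was 0.23 around Drd1 and Adora2a and 0.09 around Ppp1r1b. Leaving out the 3 SR rats of code XIII, the SDs were 0.39 for Drd1, 0.38 for Drd2, 0.42 for Adora2a, 0.20 for Ppp1r1b and 0.50 for Th, at percentiles 91.6, 88.1, 92.0, 95.9 and 69.2. With the group means removed over all 30 rats, the percentiles were 96.8 for Drd1, 93.7 for Drd2, 97.3 for Adora2a, 95.3 for Ppp1r1b and 66.9 for Th.

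Of the 10 pairs of these genes, Drd2 and Adora2a had the highest correlation. Over 30 rats, log2 CPM of Drd2 and Adora2a had Pearson's r = 0.75 (permutation p = 1e-05, the smallest 100000 resamples can give; adjusted over 10 pairs, 0.0001) and Spearman's rho = 0.60 (permutation p = 0.00067, adjusted 0.0067). The value of r was 0.61 without the 2 rats farthest from the median of the first gene of the pair, here Drd2. It was 0.57 without the 3 SR rats of code XIII, 0.46 within code XII (n = 11), 0.82 within code XIII (n = 19) and 0.74 with the group means removed. Of 15796 other genes, Adora2a was at rank 2 by r with Drd2, and Drd2 was at rank 2 by r with Adora2a. These ranks were 30 and 18 without the 3 SR rats of code XIII.

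Adora2a and Ppp1r1b had r = 0.69 (permutation p = 3e-05, adjusted 0.00015) and rho = 0.52 (permutation p = 0.0041, adjusted 0.0205), and r was 0.54 without the 2 farthest rats, 0.41 without the 3 SR rats of code XIII, 0.51 within code XII and 0.81 within code XIII. Ppp1r1b was at rank 6 among the genes most like Adora2a, and Drd1 at rank 12, but at ranks 312 and 599 without those 3 rats. Drd1 and Adora2a had r = 0.62 (permutation p = 0.00041, adjusted 0.00137) and rho = 0.42 (permutation p = 0.0234, adjusted 0.078), and r was 0.40 without the 2 farthest rats, 0.36 (rho 0.23) without the 3 SR rats of code XIII and 0.59 within each code.

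As for the pairs above, the correlations of 3 further pairs were lower without the 2 rats farthest from the median of the first gene named. Drd1 and Drd2 had r = 0.46 (permutation p = 0.012, adjusted 0.024) and rho = 0.27 (permutation p = 0.155, adjusted 0.258), but r was 0.11 without SR replicates XIII-L09 and XIII-R07, -0.06 within code XII, 0.53 within code XIII and 0.44 with the group means removed. For Drd2 and Ppp1r1b, r was 0.38 (permutation p = 0.0375, adjusted 0.0625) and rho 0.15 (permutation p = 0.434, adjusted 0.536), but r was 0.07 without the 2 farthest rats, -0.09 within code XII and 0.61 within code XIII. For Drd1 and Ppp1r1b, r was 0.51 (permutation p = 0.0038, adjusted 0.0095) and rho 0.35 (permutation p = 0.0576, adjusted 0.144), but r was 0.24 without the 2 farthest rats, 0.05 within code XII and 0.73 within code XIII. Without the 3 SR rats of code XIII, r was 0.06 for Drd1 and Drd2, -0.05 for Drd2 and Ppp1r1b and 0.18 for Drd1 and Ppp1r1b. Th had r between 0.10 and 0.28 with the other 4 genes, and p was between 0.13 and 0.599 (permutation tests). With the group means removed, r of Th and Ppp1r1b was 0.60, against 0.28 before, 0.32 within code XII and 0.30 within code XIII, and the 0.60 was not tested.

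The genes most like each member over the 30 rats carry no symbol in the sources used here. The highest r with Drd1 was 0.82 (ENSRNOG00000012302), that with Drd2 was 0.78 (ENSRNOG00000005392) and that with Adora2a was 0.78 (ENSRNOG00000026953). It was 0.74 with Ppp1r1b (ENSRNOG00000021117) and 0.76 with Th (ENSRNOG00000002365), each among 15796 genes. Without the 3 SR rats of code XIII, the gene named for Ppp1r1b was again the first (r = 0.75), those for Drd1 (0.76), Drd2 (0.74) and Th (0.76) were at rank 2, and that for Adora2a (0.51) was at rank 69.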

How the data were processed

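The authors deposited 1 table of raw counts per library, with exon positions and summed exon length for each Ensembl gene. The submitters' processing notes list bcl2fastq 2.17, Trimmomatic 0.36, STAR 2.5.2b and featureCounts of Subread 1.5.2, and the genome build and strand setting are not given in the sources used here. RNA was enriched for poly(A), so levels are of mature messages. Groups and codes came from the titles and treatment labels.

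Counts of all genes passing filterByExpr (15797) were fitted over the 5 groups with edgeR 4.0.16 in R 4.3.3 (TMM, quasi-likelihood test, Benjamini-Hochberg adjustment over all genes tested). Standard errors were taken as the log2 fold change over the square root of F. METH and saline averages weighted the groups equally. TPM were computed from counts and exon length. Single genes were also tested by two-sided permutation of CPM with scipy 1.17.1, exact where both groups held fewer than 10 rats and with 100000 resamples otherwise, between groups, between neighbours in the order of means and within codes, and these p were not adjusted. Correlations used log2 CPM with a prior count of 2. The fit was tested on simulated data.

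DESeq2 1.42.0, other filters and scalings, Tukey's test, the title code or letter as a covariate, single codes and each rat left out were tried as alternatives. The members and lists were chosen with earlier results of these data known. For each member, the gene with the highest r was named. The 83 symbols of other marker and pathway lists were not analysed here, since 0 genes of the reference table carry an Ensembl identifier.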

Additional observations from a re-analysis of the deposited data

How the results depend on the processing

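With 1 rat left out at a time, 1606 of 1650 log2 fold changes kept their direction and their side of the adjusted threshold and 44 changed sign. Over the other alternatives 426 of 460 kept both, 2 were stronger and 32 changed sign. Unadjusted calls were gained in some of the 30 fits without 1 rat for Ppp1r1b in SS vs. YSS (6), Adora2a in SR vs. YSR (5), Drd2 in SR vs. YSR (3) and Drd1 in SR vs. SS (1). With any 1 rat left out, no member passed the adjusted threshold over both codes (smallest adjusted p = 0.153, edgeR). The ranges that crossed 0 were, for Adora2a, -0.27 to 0.0360 (SS vs. CT), -0.19 to 0.0119 (SS vs. YSS), -0.10 to 0.32 (YSR vs. CT), -0.0384 to 0.31 (YSR vs. YSS) and -0.17 to 0.14 (YSS vs. CT). They were, for Drd1, -0.0438 to 0.39 (SR vs. CT), -0.0276 to 0.29 (SS vs. YSS), -0.22 to 0.0308 (YSR vs. CT) and -0.13 to 0.38 (interaction), and for Drd2, -0.00838 to 0.13 (METH vs. saline) and -0.11 to 0.12 (YSS vs. CT). For Ppp1r1b they were -0.0560 to 0.0465 (SS vs. CT) and -0.0342 to 0.10 (YSR vs. CT), and for Th, -0.00213 to 0.11 (METH vs. saline), -0.10 to 0.0641 (METH vs. yoked), -0.18 to 0.0549 (SR vs. CT) and -0.16 to 0.16 (YSR vs. YSS). Without the 3 SR rats of code XIII, values of changed sign were -0.18, -0.19, -0.11 and -0.15 for Drd1, Drd2, Th and Adora2a in METH vs. saline, -0.11, -0.15 and -0.16 for Drd1, Drd2 and Adora2a in METH vs. yoked, -0.486, -0.250 and -0.11 for these 3 in SR vs. CT, -0.32 for Drd1 in SR vs. SS, -0.41, -0.0422 and -0.21 for the 3 in SR vs. YSR, and -0.58, -0.11 and -0.0721 for Drd1, Adora2a and Ppp1r1b in the interaction. In code XIII alone, Th was 0.0440 in METH vs. yoked, 0.36 in SR vs. CT, 0.0329 in SR vs. SS and 0.39 in YSR vs. YSS, Drd1 was 0.0160 in SS vs. CT, and Ppp1r1b was stronger at 0.57 in SR vs. CT and 0.62 in SR vs. SS. In code XII alone, SR vs. YSR was -0.39 for Drd1 and -0.0743 for Adora2a. With the code as a covariate, Ppp1r1b was 0.00237 in SS vs. CT, Drd1 0.15 in YSR vs. CT and Th 0.00211 in YSR vs. YSS. With the title letter as a covariate, Ppp1r1b was 0.0170 in SS vs. CT, Drd2 0.0538 in YSS vs. CT and Th 0.0490 in YSR vs. YSS, and by Tukey's test Drd2 was 0.00976 and Adora2a 0.00802 in YSS vs. CT. As RPKM, mean levels were 2.71 for Drd1, 1.76 for Drd2, 0.563 for Th and 56.6 for Ppp1r1b, a scale that sums to less than TPM, and without the mitochondrial chromosome Ppp1r1b was at 140.1 TPM. With all genes of at least 1 count, unadjusted counts were 1759 (METH vs. saline), 1350 (YSS vs. CT), 1349 (interaction), 1287 (SS vs. CT), 1169 (SS vs. YSS) and 941 (YSR vs. YSS). They were 1079 for SR vs. CT with the code as a covariate, and 1034 (SS vs. YSS), 732 (SR vs. YSR) and 487 (interaction) in code XIII alone. Adjusted counts with the covariate were 1 (METH vs. saline) and 1 (METH vs. yoked). In code XIII alone they were 6 (SS vs. CT), 4 (YSS vs. CT), 4 (SR vs. CT), 1 (SR vs. SS), 0 (SR vs. YSR) and 0 (YSR vs. CT, with 964 unadjusted, edgeR). By DESeq2 they were 32 (SR vs. YSR), 27 (YSR vs. CT), 23 (SS vs. CT), 14 (METH vs. saline), 14 (YSS vs. CT), 13 (SR vs. CT), 12 (METH vs. yoked) and 12 (SR vs. SS).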
